A study of Mus musculus with 14 samples.

Results

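The 64 genes described here encode the machinery that carries signals from G-protein coupled receptors to cyclic nucleotides in the mouse nucleus accumbens, the ventral part of the striatum and a station of the reward circuit. They were chosen by gene symbol alone, as protein-coding rows of the authors' deposited comparison for phosphodiesterases (Pde genes with a letter a to d), adenylyl cyclases (Adcy), regulators of G-protein signalling (Rgs) and heterotrimeric G-protein alpha, beta and gamma subunits (Gna, Gnb and Gng). The comparison holds 13130 genes. Of the 80 protein-coding genes with such symbols in the GENCODE M21 annotation, the other 16 were not analysed here. By family, the 64 comprised 15 phosphodiesterase genes, 9 adenylyl cyclases, 16 RGS genes, 11 alpha subunits, 4 beta subunits and 9 gamma subunits.

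All mice were C57BL/6 and carried loxP sites in both copies of Tet1, whose product converts methylated cytosine to its hydroxymethyl form. The nucleus accumbens of 7 mice was injected with an adeno-associated virus (AAV) delivering the recombinase Cre, and that of 7 controls of the same genotype with AAV-GFP, which delivers a green fluorescent marker. Tissue was collected after 4 weeks, and every mouse gave its own library. The labels used here do not name the promoter that drives Cre, the cells infected, or the age and sex of the mice. The tissue holds all its cell types in bulk, so fewer cells of a type and less RNA per cell cannot be told apart.

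In the striatum, dopamine D1 receptors and the striatal adenosine receptors encoded by Adora2a act through the alpha subunit Golf, which stimulates adenylyl cyclase 5, whereas D2 and muscarinic M4 receptors act through Gi/o subunits that inhibit it. RGS proteins speed the hydrolysis of GTP by the alpha subunit and so shorten the signal. Phosphodiesterases then break down cyclic AMP, cyclic GMP or both, and phosphodiesterase 10A is known for its high level in striatal projection neurons.

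The sequences shown first are the promoters of the neighbouring alpha subunit genes Gna15 and Gna11, because Gna15 had the highest fold change of the 64 genes. Gna11 lies upstream on the same strand and ends 4.50 kb from the start of Gna15, yet stood near the middle of the family. The promoters are therefore farther apart than that gap. Each window runs from 250 bases before to 50 after a RefSeq transcript start and is printed 5′ to 3′ on the minus strand of build GRCm38.p6, with CpG dinucleotides, the sites at which DNA is mainly methylated in mammals, in capitals. The Gna15 window is chr10:81524176-81524475 and the Gna11 window chr10:81545113-81545412.

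Gna15: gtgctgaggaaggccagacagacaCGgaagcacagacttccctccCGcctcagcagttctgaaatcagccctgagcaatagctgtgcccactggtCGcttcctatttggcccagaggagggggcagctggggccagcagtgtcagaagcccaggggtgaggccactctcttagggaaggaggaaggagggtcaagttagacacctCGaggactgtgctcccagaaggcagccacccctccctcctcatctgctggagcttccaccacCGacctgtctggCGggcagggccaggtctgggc

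Gna11: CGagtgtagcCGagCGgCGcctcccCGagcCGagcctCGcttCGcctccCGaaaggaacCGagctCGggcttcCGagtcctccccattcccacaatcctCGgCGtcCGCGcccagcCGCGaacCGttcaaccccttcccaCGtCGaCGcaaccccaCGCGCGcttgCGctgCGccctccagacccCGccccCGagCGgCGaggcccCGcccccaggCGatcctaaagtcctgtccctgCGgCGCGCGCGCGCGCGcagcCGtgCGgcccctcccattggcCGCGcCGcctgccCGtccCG

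The Gna15 window held 6 CpG dinucleotides and the Gna11 window 48. Over 85 RefSeq promoter windows of 51 of the 64 genes the number ran from 1 to 53 with a median of 12, against a median of 7 over 32851 windows of all genes. The genes Pde3b, Pde7a, Pde9a, Adcy6, Adcy8, Rgs11, Rgs14, Rgs20, Gnal, Gnai2, Gnaz, Gnb4 and Gng11 had no entry. The full cyclic AMP response element TGACGTCA, searched on both strands, was found in 0 of the 85 windows and in 1.79% of all windows. Its core TGACG, which lies within the full element, was found in 17 of the 85 windows, 20% of them, and in 20.8% of all windows. For TTCNNNGAA, the letters of the gamma-activated site bound by STAT factors, the shares were 11.8% and 8.30%. For GAAANNGAA, letters like the core of the interferon-stimulated response element, they were 5.88% and 8.56%, and neither printed window held any of these motifs. Methylation was not measured in the data used here.

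The values available are the authors' deposited log2 fold changes, AAV-Cre over AAV-GFP, with a mean log2 level, a moderated t and p-values. They include no value per mouse, so neither the level in each mouse nor the overlap of the groups can be shown, and the depth per library is unknown. Standard errors (SE) and 95% limits were derived from the fold change and t. Tet1 itself had a log2 fold change of -0.13 (SE 0.11, adjusted p = 0.921) in the authors' deposited table, a value over the whole transcript that does not measure recombination. Striatal identity was clear from levels: all 14 listed markers of striatal projection neurons were present, with a median level of 6.23 in log2 CPM per kilobase of exon against 2.72 over all genes. Their fold changes had a median of 0.090, with 13 of 14 above 0.

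None of the 64 genes passed an adjusted p of 0.05 (limma-type moderated t with Benjamini-Hochberg adjustment over 13130 genes), and neither did any other gene (0% of 13130). Adjusted p ran from 0.919 to 0.9999 over the 64 genes in the authors' deposited table. At an unadjusted p under 0.05 there were 2 of 64, Gnai2 and Gna15, both higher in AAV-Cre. Over all genes the share at that level was 5.15%, made up of 4.62% higher and 0.533% lower. The members' count was near or below that background in each direction. Of the 64 fold changes 36 were above 0 (all genes: 59.1%), and their median was 0.022 on the log2 scale (all genes: 0.018). They ran from -0.33 for Adcy1 to 0.49 for Gna15.

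For 53 of the 64 genes the 95% limits lay wholly inside a log2 change of ±0.5, that is between -29.3% and 41.4%, which is 82.8% of them, compared with 85.6% of all genes and 89.0% of protein-coding genes. The median ratio of their standard errors to those of genes with a similar level was 1.42, so the 64 genes were bounded somewhat less narrowly than genes of like abundance. All 15 phosphodiesterase genes, all 4 beta subunits, 15 of 16 RGS genes and 10 of 11 alpha subunits were inside. Among gamma subunits 6 of 9 were, and among adenylyl cyclases 3 of 9. The plot of fold changes by family shows these intervals for every gene.

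**Figure D1:**
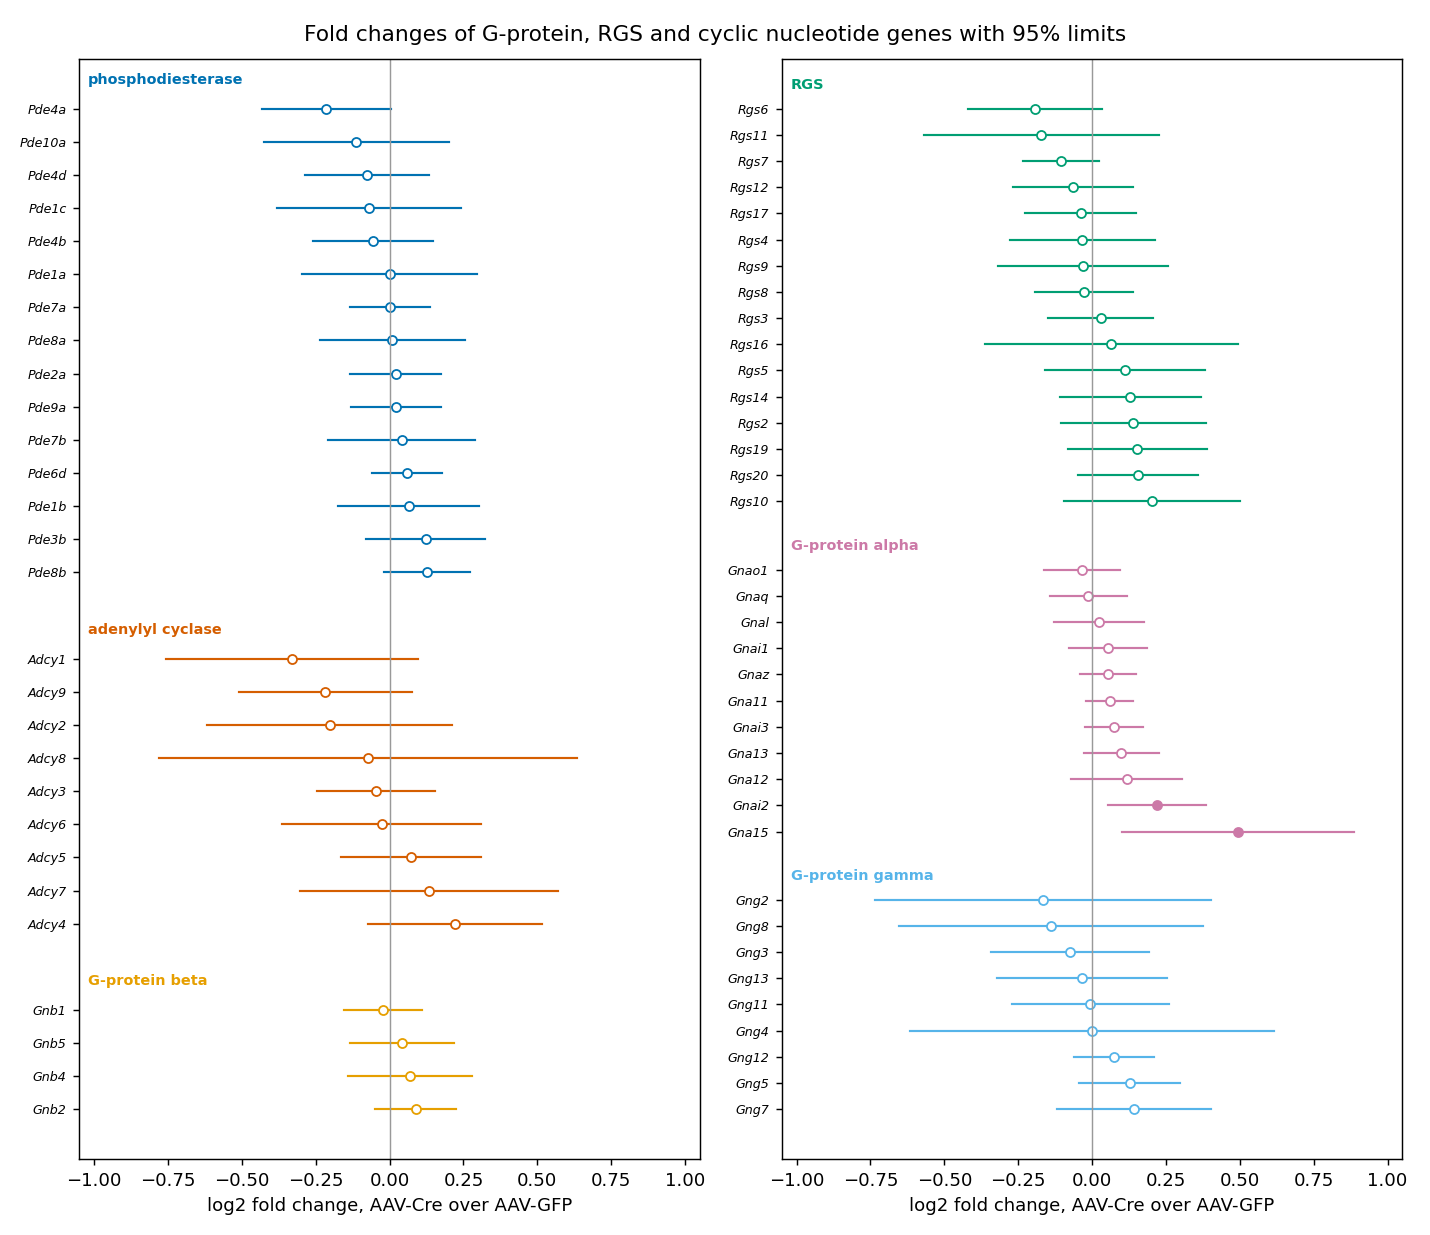
Log2 fold changes (x axis, AAV-Cre over AAV-GFP) of all 64 genes, one row per gene grouped by family; points are the authors' deposited values, filled where the unadjusted p is under 0.05, and lines are 95% limits derived from them. Only Gnai2 and Gna15 have limits that leave out 0, and the widest interval is that of Adcy8, from -0.78 to 0.63.

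G-protein alpha subunits, which bind GTP and set the kind of signal, had the largest share of values above 0, with 9 of 11, and their median was 0.061 (log2). Gnai2 (ENSMUSG00000032562.9, chromosome 9, 107614125 to 107635367, minus strand, GRCm38) encodes an inhibitory subunit that is abundant in immune and endothelial cells besides neurons. It stood at a log2 fold change of 0.22 (SE 0.078) in the authors' deposited table, 16.5% higher in AAV-Cre with 95% limits of 3.83% to 30.7% (unadjusted p = 0.0127, adjusted p = 0.919 by the authors' moderated test). Its mean level was 186 CPM.

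Gna15 (ENSMUSG00000034792.8, chromosome 10, 81502306 to 81524225, minus strand) encodes a Gq-class subunit known mainly from blood cells. Its log2 fold change was 0.49 (SE 0.18) in the authors' deposited table, 40.8% higher with limits of 7.34% to 84.7% (unadjusted p = 0.0168, adjusted p = 0.919). At a mean level of 2.82 CPM it was the least abundant alpha subunit. Its neighbour Gna11 (ENSMUSG00000034781.5, 81528724 to 81545190), a Gq-class subunit of many tissues whose gene lies 4.50 kb away, stood at 0.061 (SE 0.037) in the authors' deposited table, with limits of -1.30% to 10.2%. The standard error of Gna11 was the smallest of the 64 genes and 0.551 times the median of genes at its level. Without values per mouse the difference between the neighbours was not tested.

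Values of immune marker genes stood beside these. All 12 microglia markers were above 0, with a median of 0.49 on the log2 scale. They ran from 0.024 for P2ry12 to 0.72 for Ctss in the authors' deposited table. Among them 7 had an unadjusted p under 0.05 (all genes: 5.15%). Of 12 leukocyte markers the table used here held 6, all above 0, with a median of 1.19. Of these, 5 had an unadjusted p under 0.05 (all genes: 5.15%). The most abundant, Coro1a at 5.61 log2 CPM, had the lowest value, 0.067 (SE 0.070) in the authors' deposited table. Only 4 of the 6 averaged at least 1 CPM. The largest fold changes, of Ccl5 (2.28), Cd79a (1.67) and Trac (1.39), were at mean levels of 0.70, -0.14 and -1.52 log2 CPM. The filter on low levels is not given, so genes this low may have been kept through the group where they were higher. The endothelial markers were above 0 in 8 of 8, with a median of 0.19. No marker passed the adjusted threshold. Group levels per mouse are not known, so the part of these cells in the values of Gnai2 and Gna15 was not tested.

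The remaining alpha subunits lay close to 0 and were tightly bounded. Gnal, which encodes Golf, the stimulatory subunit that takes the place of Gs in striatal neurons, had a log2 fold change of 0.023 (SE 0.071) in the authors' deposited table, with limits of -8.52% to 12.9% (unadjusted p = 0.749). Gnao1, the most abundant inhibitory subunit gene of brain, was the lowest of the family at -0.034 (SE 0.060) in the authors' deposited table, with limits of -10.6% to 6.68% (unadjusted p = 0.575). The stimulatory subunit gene Gnas, which the symbol pattern leaves out, stood at 0.015 (SE 0.16) in the authors' deposited table, with wider log2 limits of -0.33 to 0.36. The inhibitory Gnai1, Gnai3 and Gnaz stood at 0.054, 0.075 and 0.054 there. The G12-class genes Gna12 and Gna13 were at 0.12 and 0.099 in the authors' deposited table, and Gnaq, the main Gq subunit gene of neurons, at -0.013. The limits were -4.82% to 23.6% for Gna12 and -1.92% to 16.9% for Gna13.

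Beta and gamma subunits form the dimer that holds the alpha subunit at the membrane and, once released, acts on channels and enzymes of its own. The beta genes ran from -0.023 (SE 0.062) for Gnb1 to 0.088 (SE 0.065) for Gnb2 in the authors' deposited table, and their limits reached from -10.2% to 7.81% for Gnb1 and from -3.42% to 17.0% for Gnb2. Between them lay Gnb5 at 0.042 and Gnb4 at 0.070 in the authors' deposited table. Gng7, whose product pairs with Golf in the striatum, had the highest value of the gamma genes, 0.14 (SE 0.12, unadjusted p = 0.269) in the authors' deposited table, with log2 limits of -0.12 to 0.40. It was also the most abundant of the 64 genes per length, at 8.50 in log2 CPM per kilobase. The lowest gamma gene was Gng2 at -0.16 (SE 0.27) in the authors' deposited table. Gng4, also a neuronal gamma gene, lay almost exactly at 0 with an SE of 0.29. Of the 9 gamma genes 3 were above 0 and the median was -0.0057.

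Among adenylyl cyclases, which make cyclic AMP from ATP, 6 of 9 values were below 0 and the median on the log2 scale was -0.046. The 3 isoforms stimulated by calcium and calmodulin were all below 0. These were Adcy1 at -0.33 (SE 0.20), Adcy8 at -0.074 (SE 0.33) and Adcy3 at -0.046 (SE 0.094) in the authors' deposited table. Adcy1 had the lowest fold change of the 64 genes, 20.5% lower in AAV-Cre with limits from a 40.8% decrease to a 6.79% increase (unadjusted p = 0.118, adjusted p = 0.921). Adcy9, the isoform least sensitive to forskolin, and Adcy2, stimulated by beta-gamma dimers, stood at -0.22 (SE 0.14) and -0.20 (SE 0.19) in the authors' deposited table. Markers of cortical excitatory neurons, a cell type of the cortex, were below 0 in 8 of 9 genes measured. Their median on the log2 scale was -0.46, with 0 at an unadjusted p under 0.05. The part of such cells in the cyclase values was not tested.

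Adcy5, the main cyclase of striatal projection neurons, had a log2 fold change of 0.072 (SE 0.11) in the authors' deposited table, with limits of -10.7% to 23.8% (unadjusted p = 0.525). Its nearest relative Adcy6 stood at -0.027 (SE 0.16) there. The highest values of the family belonged to Adcy4, an isoform of endothelial cells among others, at 0.22 (SE 0.14, unadjusted p = 0.131), and to Adcy7, an isoform of immune cells, at 0.13 (SE 0.21) in the authors' deposited table. Adcy4, at a mean of 3.57 CPM, and Adcy8, at 7.90 CPM, were the least abundant cyclases.

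RGS genes were split evenly, with 8 of 16 values above 0 and a median of 0.0012 on the log2 scale. The R7 group, whose proteins work as obligate dimers with the beta subunit encoded by Gnb5, was below 0 in 4 of 4 genes. The group's median was -0.14, and over all genes 59.1% of values were above 0. Gnb5 itself stood above 0, at 0.042 (SE 0.082) in the authors' deposited table. Rgs6 stood at -0.19 (SE 0.11, unadjusted p = 0.0882), Rgs11 at -0.17 (SE 0.19), Rgs7 at -0.11 (SE 0.061, unadjusted p = 0.103) and Rgs9, the striatum-enriched member that limits dopamine and opioid receptor signals, at -0.031 (SE 0.13) in the authors' deposited table. Rgs7bp, which encodes the protein that anchors these dimers to the membrane, was at -0.15 (SE 0.10) in the authors' deposited table. None of the R7 genes had an unadjusted p under 0.05, and the limits of each included 0.

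The highest RGS value was that of Rgs10, known from microglia and neurons, at 0.20 (SE 0.14, unadjusted p = 0.168) in the authors' deposited table. Rgs20 (0.16, SE 0.095) and Rgs19 (0.15, SE 0.11) of the RZ group followed it there, while Rgs17 of the same group stood at -0.039. In the R4 group of small RGS proteins 4 of 6 were above 0. Rgs2, an inducible regulator of Gq, was at 0.14 (SE 0.11) and Rgs4, a regulator of Gi/o and Gq in neurons, at -0.033 (SE 0.12) in the authors' deposited table. The limits were -6.96% to 30.5% for Rgs2 and -17.5% to 15.8% for Rgs4. Rgs5, a pericyte marker, stood at 0.11 (SE 0.13) in the authors' deposited table. All 8 mural cell markers were above 0 there with a median of 0.13, and 0 of them had an unadjusted p under 0.05. Values above 0 were also found for 8 of 8 oligodendrocyte markers (median 0.063), 6 of 8 astrocyte markers (median 0.096) and 59.1% of all genes. The part of mural cells in the value of Rgs5 was not tested. The pairs of adjacent R4 genes on chromosome 1 did not share a sign: Rgs8 and Rgs16, 40.0 kb apart, had -0.026 and 0.065, and Rgs5 and Rgs4, 45.7 kb apart, had 0.11 and -0.033 in the authors' deposited table.

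The phosphodiesterases had log2 fold changes from -0.21 to 0.13, with 10 of 15 above 0 and a median of 0.0089. The lowest was Pde4a, a cyclic AMP-specific isoform and a target of rolipram, at -0.21 (SE 0.10) in the authors' deposited table, 13.8% lower with limits from -25.9% to 0.292% (unadjusted p = 0.0540, adjusted p = 0.919). Its relatives Pde4b and Pde4d stood at -0.056 (SE 0.095) and -0.077 (SE 0.099) in the authors' deposited table. At the other end were the cyclic AMP-specific Pde8b at 0.13 (SE 0.068, unadjusted p = 0.0816) and Pde3b, an isoform that cyclic GMP inhibits, at 0.12 (SE 0.094) in the authors' deposited table.

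The isoforms best known from striatal projection neurons all had limits that included 0. Pde10a, which hydrolyses both nucleotides, had a log2 fold change of -0.11 (SE 0.15) in the authors' deposited table, with limits of -25.5% to 14.8% (unadjusted p = 0.454). Pde1b, which calcium and calmodulin activate, stood at 0.065 (SE 0.11), Pde2a, which cyclic GMP activates, at 0.021 (SE 0.072) and Pde7b, a cyclic AMP-specific isoform, at 0.042 (SE 0.12) in the authors' deposited table. Their limits were -11.4% to 23.4% for Pde1b, -8.80% to 13.0% for Pde2a and -13.4% to 22.3% for Pde7b. The cyclic GMP-specific Pde9a was at 0.023 (SE 0.072) there. Pde6d shares the family symbol but encodes a chaperone for prenylated proteins and no enzyme; its value was 0.059 (SE 0.056) in the authors' deposited table.

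**Figure D2:**
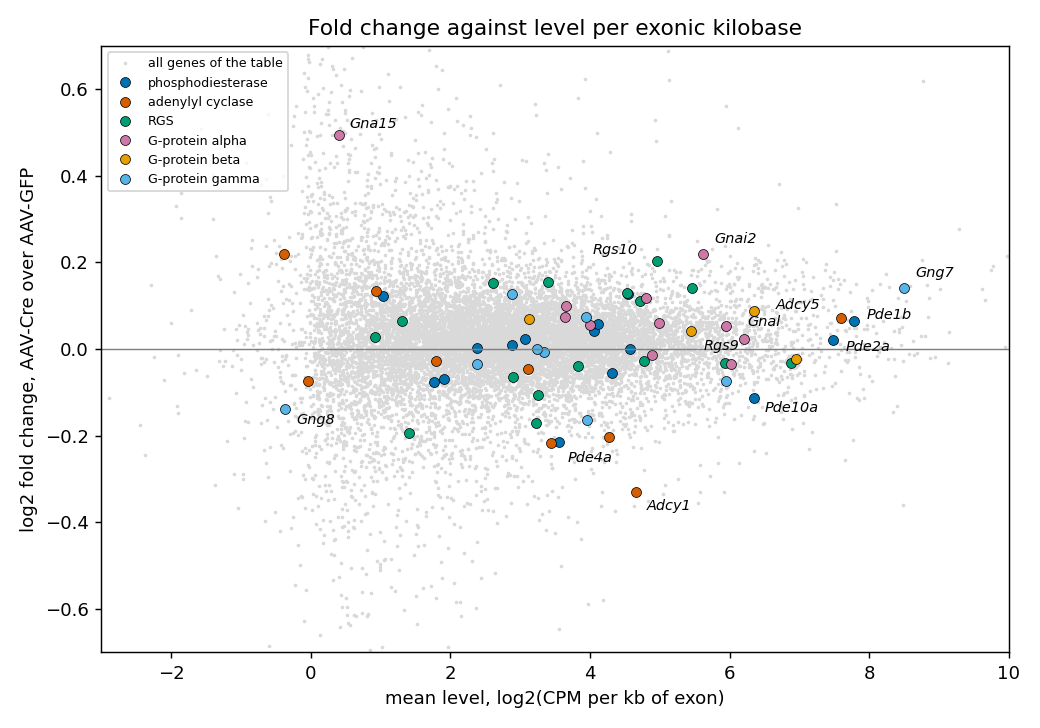
Log2 fold change (y axis, AAV-Cre over AAV-GFP) against mean level in log2 CPM per kilobase of exon (x axis) for all genes of the table (grey) and the 64 genes (coloured by family); genes beyond the axis limits are not drawn. The most abundant members, Gng7, Pde1b, Adcy5 and Pde2a, lie between 0.021 and 0.14, and Gna15 lies apart at a low level.

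The core of the striatal cyclic AMP pathway was among the most abundant messages of the tissue. Per kilobase of exon, Gng7 (8.50 in log2 CPM per kb), Pde1b (7.79), Adcy5 (7.60) and Pde2a (7.47) lay between the percentiles 99.0 and 99.7 of all genes. Gnb1 (6.95), Rgs4 (6.88), Pde10a (6.35), Gnb2 (6.35) and Gnal (6.21) followed, between the percentiles 96.4 and 98.4. The spread over mice behind these levels is not known, so neighbours in this order are not separated. The lowest were Adcy4 (-0.39), Gng8 (-0.37) and Adcy8 (-0.045) on the same scale, and all 64 genes had a mean of at least 1 CPM.

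The main steps of the striatal pathway, picked here for their known role, had limits that included 0. The receptor genes Drd1a (0.048, SE 0.11), Drd2 (0.050, SE 0.12), Adora2a (0.14, SE 0.10) and the muscarinic M4 receptor gene Chrm4 (0.045, SE 0.11) had log2 fold changes between 0.045 and 0.14 in the authors' deposited table, with an upper limit of 0.36 for Adora2a. Prkaca, a catalytic subunit of protein kinase A, stood at -0.0059 (SE 0.078), and its striatal substrate gene Ppp1r1b, which encodes DARPP-32, at 0.14 (SE 0.14) with an upper limit of 0.43 in the authors' deposited table.

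In the wider lists, no gene passed the adjusted threshold. Of 37 measured G-protein coupled receptors of the striatum 17 were above 0, the values ran from -0.50 to 0.46 with a median of -0.022, and 1 had an unadjusted p under 0.05. This was the serotonin receptor gene Htr2a, at -0.45 (SE 0.18, unadjusted p = 0.0234 by the authors' moderated test). Next by p were the cannabinoid receptor gene Cnr1 (-0.30, SE 0.16) and the delta opioid receptor gene Oprd1 (-0.23, SE 0.13). The adrenergic receptor gene Adra2c came after them by p and lay above 0, at 0.17 (SE 0.11) in the authors' deposited table. Protein kinase A, its anchors and the cyclic AMP-activated exchange factors had 11 of 21 above 0 and a median of 0.0083, with the inhibitor gene Pkig highest at 0.15 (SE 0.074) in the authors' deposited table. Cyclic AMP response factors and kinase targets had 15 of 20 above 0 and a median of 0.030. In both lists 0 genes had an unadjusted p under 0.05.

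Genes of cyclic GMP synthesis and its targets had 3 of 10 above 0 and a median of -0.031, with the guanylyl cyclase subunit gene Gucy1a2 lowest at -0.35 (SE 0.17, unadjusted p = 0.0607) in the authors' deposited table. Receptor kinases and arrestins, which end receptor signals, had 3 of 7 above 0 and a median of -0.0092. Among other effectors of G-proteins 4 of 19 were above 0 and the median was -0.092. The phospholipase gene Plcb2 (0.24, SE 0.13) and the kinase gene Prkcd (0.33, SE 0.18) stood highest, and the potassium channel genes Kcnj9 (-0.25, SE 0.15) and Kcnj3 (-0.37, SE 0.31) lowest in the authors' deposited table. In these 3 lists 0 genes had an unadjusted p under 0.05.

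Of the relatives that the symbol pattern leaves out, 6 of 8 measured were above 0 (all genes: 59.1%). At an unadjusted p under 0.05 there were 2, Gpsm3 and Gngt2 (all genes: 5.15%). Gpsm3, a regulator of Gi subunits known from blood cells, stood at 0.57 (SE 0.18, unadjusted p = 0.00650, adjusted p = 0.822 by the authors' moderated test). The gamma subunit gene Gngt2 stood at 0.38 (SE 0.17, unadjusted p = 0.0465) in the authors' deposited table. At mean levels of 0.68 and 1.01 log2 CPM, both genes may likewise have been kept through the group where they were higher.

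**Figure D3:**
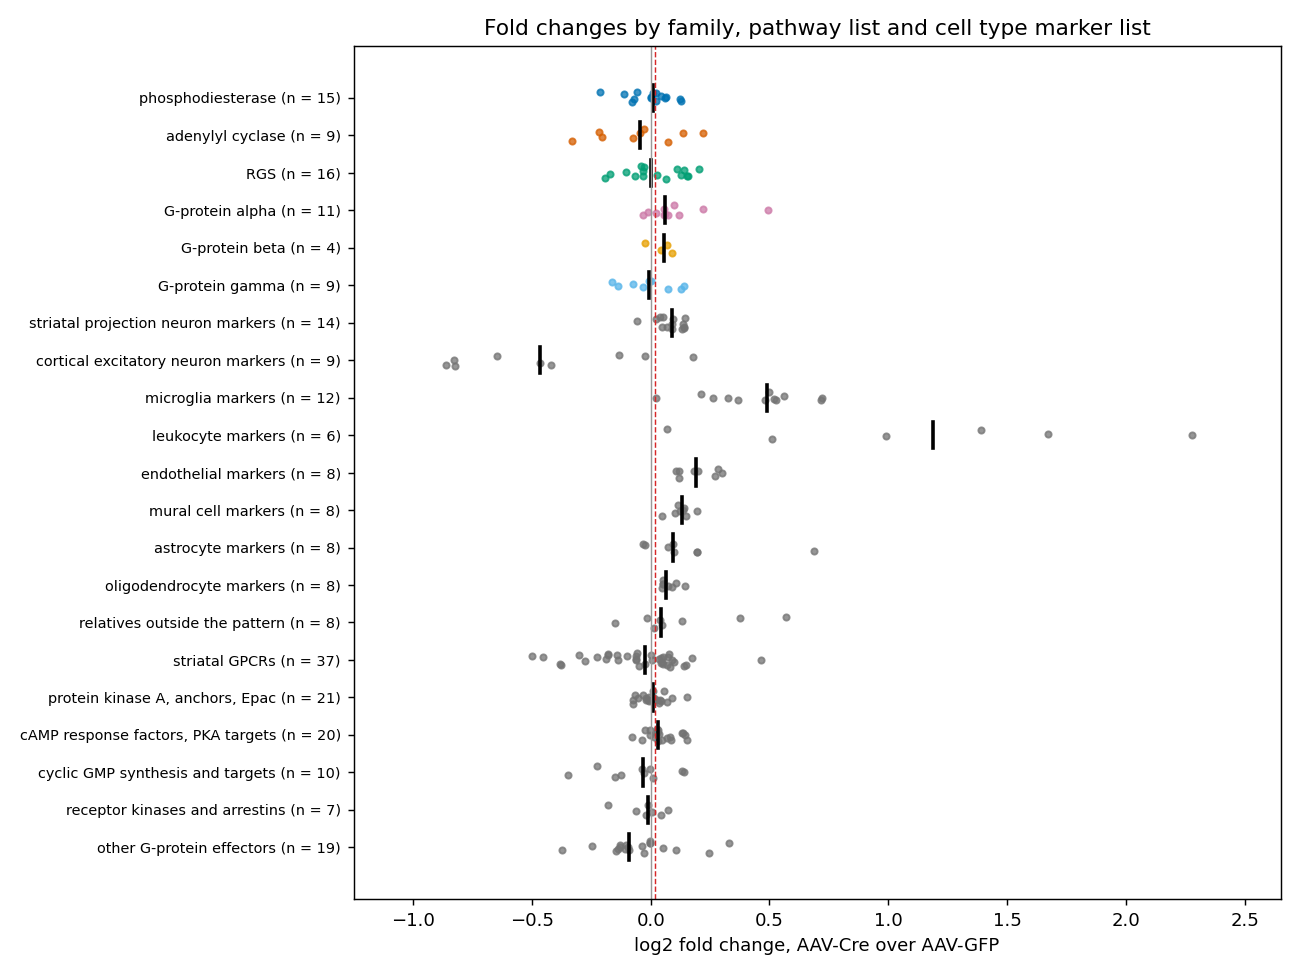
Log2 fold changes (x axis, AAV-Cre over AAV-GFP) of every gene in the 6 families (coloured) and in the pathway and cell type marker lists (grey); black bars are medians, the solid line is 0 and the dashed line the median of all genes. The families centre between -0.046 and 0.061, while microglia markers centre at 0.49 and cortical excitatory neuron markers at -0.46.

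Among the 6 families, adenylyl cyclases had the largest standard errors for their level. The SE of a fold change, derived here from a moderated t, depends only in part on the spread between mice. Of the cyclases, 6 of 9 had an SE over 2 times the median of the genes nearest in level, against 9.09% of all genes. By family the median of that ratio was 2.20 for cyclases, 1.54 for RGS genes, 1.47 for phosphodiesterases, 1.25 for gamma, 1.07 for beta and 0.895 for alpha subunits. The ratio was 2.72 for Adcy1, 3.10 for Adcy2, 3.09 for Adcy8, 2.44 for Adcy7, 2.20 for Adcy9 and 2.18 for Adcy6. Adcy5, at 1.44, Gnal, at 0.947, and Gnao1, at 0.793, were lower. Ratios over 2 were also common in some wider lists: 40.5% of the striatal receptors, 40% of the cyclic GMP genes and 31.6% of the other effectors. The share was 14.3% for the protein kinase A list, 14.3% for receptor kinases and arrestins and 0% for cyclic AMP response factors and kinase targets.

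Outside the cyclases the gamma subunit genes Gng4 (4.37) and Gng2 (4.24) had the largest ratios, and Rgs11 (2.84), Pde1c (2.33), Rgs10 (2.18) and Pde1a (2.05) completed the 12 members over 2. The markers of cortical excitatory neurons had a median ratio of 7.09, with 7 of 9 over 2. Microglia markers had a median ratio of 2.66. How much of these ratios came from spread between mice, and from which mice, cannot be seen in these data. The part of either cell type in the standard errors of the members was not tested.

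**Figure D4:**
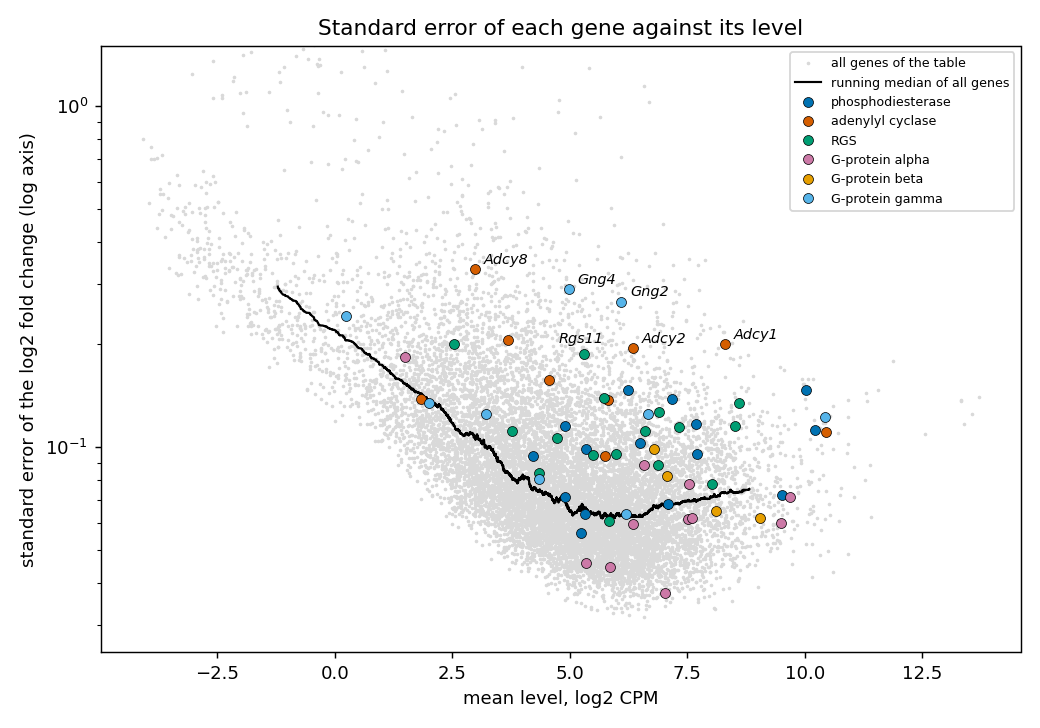
Standard error of the log2 fold change (y axis, log scale) against mean level in log2 CPM (x axis) for all genes (grey, black line their running median) and the 64 genes (coloured by family). Adcy8, Gng4, Gng2, Adcy1, Adcy2 and Rgs11 lie farthest above the line, and most alpha subunits lie on or below it.

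Some values may include reads of another gene. Of the 64 genes 23 share exonic bases with another GENCODE M21 gene, and in 5 the shared part is over 20% of the exonic length. Pde2a overlaps a second gene model of the same name over 95.6% of its length, Gng13 the opposite-strand gene Chtf18 over 51.6%, Gng3 the gene Bscl2 over 24.2%, Adcy3 the gene Cenpo over 22.1% and Gng2 an opposite-strand noncoding gene over 20.4%. The Pde2a models lie on the same strand, so strand cannot separate their reads. For the other 4 genes the overlap is on the opposite strand, and whether counting used strand is not given in the sources used here. All 5 values are uncertain to that extent.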

How the data were processed

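mRNA libraries of 14 mice were sequenced, 7 per group. Per the submitters' processing notes, TopHat2 2.0.9 and Bowtie2 2.1.0 were used with the builds GRCm38 and mm10; the counting step, annotation, filter on low levels and statistical model: not given in the sources used here. Deposited by the authors was 1 table of their comparison: per the file headers its log2 columns are a fold change and a mean level, its score columns a moderated t and a log-odds (unused), and its p-value columns an unadjusted and an adjusted p, with limma's column names. Linear mean levels sum to 991364, so levels are read as CPM, though the unit is not given. The sum cannot tell CPM from a per-million unit already divided by length. In that case the levels per kilobase would not hold. The direction comes from the table's name.

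Tests planned for values per library had no data to run on, so the authors' statistics were used, as planned for that case. The SE is the fold change divided by t. The 95% limits use 15.1 degrees of freedom, at which t gives p in every row with a t beyond ±1 (checked on simulated data). Rows with a t nearer 0 were not checked for this. The SE ratio divides by the median SE of the 250 genes on either side in level. Exonic lengths join all exons in GENCODE M21 and promoters are RefSeq's (GRCm38.p6). Members, lists and alternatives were chosen with earlier results of these data known. Every member could be named; full values went to members with an unadjusted p under 0.05, the extremes of each family and the best known striatal members, and up to 4 genes of smallest p per wider list; others named (Drd1a, Drd2, Adora2a, Chrm4, Prkaca, Ppp1r1b, Gnas, Kcnj3) were picked for their role or after their values were seen. No list was tested. Computation used scipy 1.17.1, numpy 2.4.6 and pandas 2.3.3 under Python 3.11.15, with figures drawn in matplotlib 3.10.9. The adjustment of p-values was checked on simulated data against statsmodels 0.14.6.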

Additional observations from a re-analysis of the deposited data

How the results depend on the processing

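Of 38 alternative values for 11 results, 37 stayed close to the reported value (a median within the median SE of its genes). The other moved: at an unadjusted p threshold of 0.01 the members' count went from 2 to 0, since both p-values lie above it. Many of the 37 could not have moved. All 64 genes averaged at least 1 CPM, so that setting left their medians and their counts by sign and unadjusted p unchanged. Centring shifted each median by 0.018, less than any median SE used (0.061 or more). No adjusted p was below 0.695, so a threshold of 0.1 could call no gene. The number of members at an adjusted p under 0.05 stayed 0 at a threshold of 0.1 and among genes averaging 1 CPM or more, where the smallest adjusted p was 0.928. Centring on the median of all genes, 0.018, left 33 members above it in place of 36. A median changed sign in 4 cases, each by less than the median SE: phosphodiesterases with centring (-0.0096) and as a mean (-0.0039), RGS genes with centring (-0.017) and gamma subunits as a weighted mean (0.051). Leaving Pde6d out was chosen after seeing the data and gave a phosphodiesterase median of 0.0057. No paired analysis was possible because the table holds no value per library; leaving out libraries and the count tests were not run for the same reason.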
